A study of Rattus norvegicus with 21 samples.

Results

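Amino acid transporters of rat pancreatic islets were followed across 21 RNA libraries, 11 from animals with partial pancreatectomy (PX) and 10 from sham-operated animals. The members were 10 named genes, Slc7a1, Slc7a2, Slc7a5, Slc7a8, Slc7a11, Slc3a2, Slc1a4, Slc1a5, Slc38a2 and Slc38a4, found by their gene name among the 28914 gene rows of the count table, and all 10 were present. In the table, whose genome build is not given in the sources used here, Slc38a2 and Slc38a4 lie on chromosome 7, Slc3a2 and Slc1a5 on chromosome 1, and the others on chromosomes 2 (Slc7a11), 12 (Slc7a1), 14 (Slc1a4), 15 (Slc7a8), 16 (Slc7a2) and 19 (Slc7a5). In PX, 90% of the pancreas had been removed, and islets were profiled 4 weeks later. Sham animals had a sham operation and the same interval. All animals were Lewis rats, described in the labels as 4-5 week, and each library carries the number of its animal. Apart from the number, no label says that each library is a separate animal, and the p-values measure only the spread among libraries, which may be technical. The average BG before sacrifice, given without a unit, ran from 101 to 174 in PX and from 82 to 104 in sham.

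Amino acids enter cells through membrane carriers with overlapping substrates. Cationic amino acids such as arginine pass through the CAT carriers Slc7a1 and Slc7a2. Large neutral amino acids and cystine pass through light chains of the SLC7 family (Slc7a5, Slc7a8 and Slc7a11), each of which needs the glycoprotein heavy chain encoded by Slc3a2 to reach the cell surface. Small neutral amino acids pass through the sodium-dependent carriers of the SLC1 and SLC38 families. In beta cells, arginine and some other amino acids are known to stimulate insulin secretion, and amino acid supply also feeds protein synthesis and mTORC1 signalling.

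Total counts ran from 4001908 to 13187959 in PX libraries and from 4695195 to 11266015 in sham libraries, and the members had between 24 and 13065 reads in a library. Islet markers were high in both groups, with a median of 76820 CPM for Ins1 in PX and 92387 CPM in sham, before any scaling between libraries. None of the markers of the 10 cell type lists was at 0 in all libraries. The macrophage score, the mean log2 CPM of the 14 macrophage markers in the count table, ran from 2.96 to 5.85 in PX and from 1.39 to 2.66 in sham, without overlap. The acinar score, from 17 markers of enzyme-secreting exocrine cells, ran from 10.2 to 14.6 in PX and from 6.97 to 12.5 in sham. PX 65 had the highest acinar score, and sham 46 had the highest macrophage and mesenchymal scores of its group. In bulk RNA, fewer cells of a type and less RNA per cell cannot be told apart.

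Of the 10 members, 4 fell in PX, 2 rose and 4 were not called. The 4 that fell were both CAT carriers, Slc7a2 and Slc7a1, with Slc1a4 and Slc38a4, and the 2 that rose were the cystine carrier Slc7a11 and the glutamine carrier Slc1a5. Across all 13136 genes tested, 16.2% were lower and 14.9% were higher in PX, or 31.1% called in either direction (quasi-likelihood test of edgeR, adjusted p under 0.05 after Benjamini and Hochberg). For 0 of the 10 members were the CPM ranges of the groups apart, beside 1.7% of all genes. The median log2 fold change of the 10 members was -0.23, beside -0.04 over all genes tested. Levels are given as TMM-scaled CPM, counts relative to a library's effective size, and a fold change is PX over sham. In the authors' deposited table the same 6 members have an adjusted p under 0.05, and all 10 have the same sign as here. That table rests on the same libraries, so this likeness is not a second measurement.

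**Figure D1:**
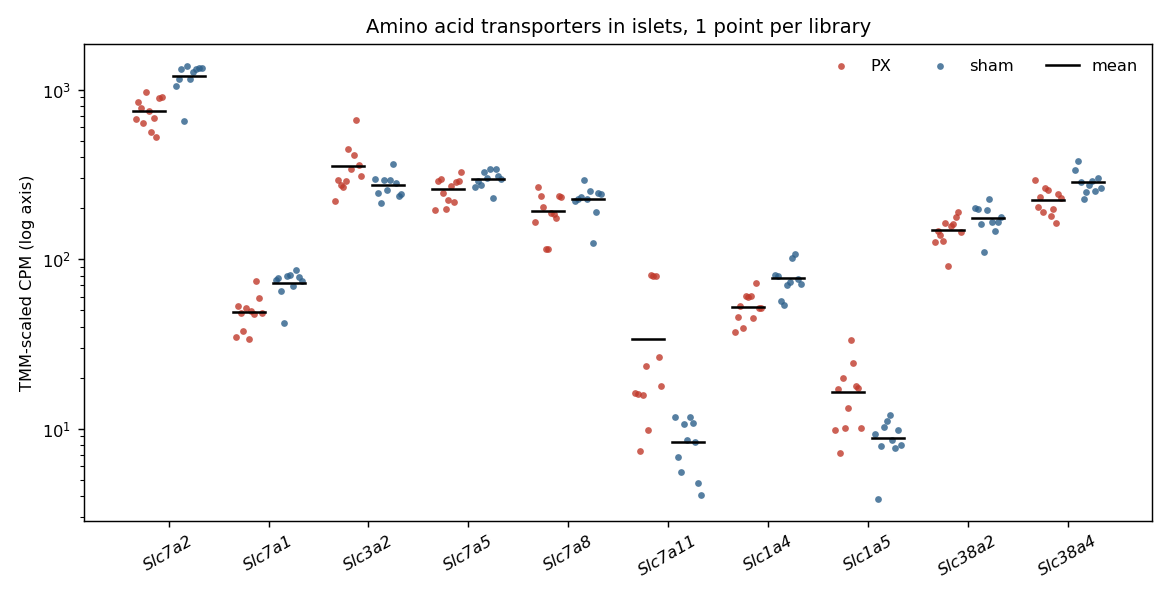
TMM-scaled CPM (log axis) of each transporter, with 1 point per library, 11 PX libraries on the left and 10 sham libraries on the right of each pair, and a bar at the group mean. Slc7a2 is the most abundant member by reads, and 3 PX libraries near 80 CPM stand above the others for Slc7a11.

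Per length, the 10 members span a wide range of levels. Counts divided by the deposited gene length and rescaled to the same sum in each library (TPM) placed Slc7a2 first in both groups, at 330 ± 123 TPM in PX (SD, n = 11) and 650 ± 165 TPM in sham (SD, n = 10). Slc3a2 came second, at 178 ± 23.3 TPM in PX and 186 ± 19.6 TPM in sham. Slc7a11 came last, at 3.70 ± 2.95 TPM in PX and 1.29 ± 0.383 TPM in sham. The order by mean was the same in both groups, namely Slc7a2, Slc3a2, Slc7a5, Slc38a4, Slc7a8, Slc38a2, Slc1a4, Slc7a1, Slc1a5 and Slc7a11. In PX the ranges of all 9 neighbouring pairs in this order overlapped. In sham 4 pairs overlapped, from Slc7a5 down to Slc1a4, and 5 did not. The least settled pair was Slc38a4 above Slc7a8 in PX, which held in 7 of 11 libraries, and Slc7a5 above Slc38a4 in sham, which held in 7 of 10. Of the summed TPM of the 10 members, Slc7a2 made up 40.8% ± 6.57 in PX and 51.8% ± 6.01 in sham. Slc3a2 made up 24.6% ± 7.12 in PX and 15.4% ± 3.24 in sham. TPM is a share of a whole library, and differences between PX and sham are given only on the TMM scale.

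Slc7a2 encodes CAT2, a carrier of arginine, lysine and ornithine. It ran from 522 CPM in PX 65 through a median of 748 to 962 CPM in PX 44, against 652 CPM in sham 46, a median of 1297 and 1384 CPM in sham 47. Sham 46 was the only sham library inside the PX range, and the other 9 lay above every PX library. Slc7a2 fell by 0.69 ± 0.13 on the log2 scale (SE), to 745 ± 145 CPM in PX, against 1200 ± 220 CPM in sham (SD; edgeR, adjusted p = 3.2e-04). All 11 PX libraries were below the sham median. With only the 8 PX animals whose BG was at most 121, the log2 fold change was -0.56 (edgeR, adjusted p = 0.0044). Leaving out 1 library at a time gave -0.72 to -0.61.

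Slc7a1 encodes CAT1, the widely expressed carrier of the same substrates. It ran from 34.0 CPM in PX 57 through a median of 48.1 to 74.7 CPM in PX 65, against 42.1 CPM in sham 46, a median of 76.3 and 85.7 CPM in sham 50. All 11 PX libraries lay below the sham median, 6 of 10 sham libraries lay above every PX library, and sham 24, sham 46, sham 49 and sham 74 lay within the PX range. Slc7a1 fell by 0.58 ± 0.13 on the log2 scale, to 48.8 ± 11.6 CPM in PX, against 72.7 ± 12.3 CPM in sham (SD; edgeR, adjusted p = 0.0018). The fall of both CAT genes was of similar size. The log2 ratio of Slc7a2 to Slc7a1 counts averaged 3.94 ± 0.454 in PX and 4.04 ± 0.176 in sham, a difference of -0.099 (two-sided permutation test of means, 100000 resamples, p = 0.58, adjusted p = 0.68 over 7 ratios). Within PX, PX 65 had the lowest Slc7a2 and the highest Slc7a1 of the group. Over all 21 libraries, after subtracting each group's mean, Slc7a1 and Slc7a2 had a Pearson's r of 0.36.

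Slc3a2, the heavy chain shared by the light chains, ran from 222 CPM in PX 36 through a median of 308 to 661 CPM in PX 65, against 213 CPM in sham 24, a median of 269 and 364 CPM in sham 49. Of the PX libraries, 9 of 11 were above the sham median and 3 were above every sham library. The log2 fold change of 0.37 ± 0.15 was not called (edgeR, adjusted p = 0.063). It was called, at 0.41, with DESeq2 size factors in edgeR, with upper-quartile factors or with DESeq2 itself (adjusted p = 0.038, 0.040 and 0.027). It was also called when any 1 of PX 36, PX 37, PX 38, PX 41, PX 44, sham 21, sham 46 or sham 49 was left out, with 0.42 to 0.47. Without PX 65 it was 0.24 and not called (adjusted p = 0.14), while without PX 44, PX 65 and sham 46 it was 0.33 and called (adjusted p = 0.043). When the acinar score entered the fit it was 0.063, and with the alpha cell score 0.18, neither called (edgeR, adjusted p = 0.79 and 0.47). With library totals as the only scaling it was 0.042 and not called (edgeR, adjusted p = 0.82).

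The light chains of the large neutral carriers had values below 0. Slc7a5 encodes LAT1, carrier of leucine and other large neutral amino acids, and ran from 195 to 327 CPM in PX around a median of 271, against 230 to 341 CPM in sham around a median of 297. Its log2 fold change of -0.20 ± 0.10 was not called (edgeR, adjusted p = 0.13). Slc7a8 encodes LAT2, with similar substrates, and ran from 114 to 265 CPM in PX around a median of 186, against 125 to 295 CPM in sham around a median of 230. Its log2 fold change of -0.23 ± 0.15 was not called either (adjusted p = 0.24). PX 44, PX 57 and sham 49 were the 3 libraries lowest in Slc7a8, at 114, 115 and 125 CPM. Their total counts were high, at 11205114, 9899157 and 11266015, while PX 65, with the largest at 13187959, had 174 CPM. The relation of Slc7a8 to total count was not tested.

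Slc7a11 encodes xCT, which brings in cystine for glutathione synthesis in exchange for glutamate and pairs with the Slc3a2 heavy chain. It ran from 7.34 CPM in PX 38 through a median of 17.8 to 80.1 CPM in PX 58, against 4.08 CPM in sham 74, a median of 8.47 and 11.7 CPM in sham 21. PX 58, PX 62 and PX 65 stood apart at 80.1, 79.5 and 79.2 CPM, while the other 8 PX libraries reached at most 26.6 CPM. In all, 9 of 11 PX libraries lay above every sham library, and PX 38 and PX 57 lay within the sham range. Slc7a11 rose by 2.02 ± 0.42 on the log2 scale, or 4.05-fold, to 33.8 ± 29.9 CPM in PX, against 8.31 ± 2.88 CPM in sham (SD; edgeR, adjusted p = 0.0010). Without PX 58, PX 62 and PX 65, left out after seeing the data, the log2 fold change was 1.04 (edgeR, adjusted p = 0.00450). When the acinar score entered the fit it was 1.28 (adjusted p = 0.031), and with limma voom 1.61 (adjusted p = 0.0061).

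Ratios of counts within a library do not depend on how libraries are scaled, and 7 were compared. The log2 ratio of Slc7a5 to Slc3a2 averaged -0.40 ± 0.46 in PX and 0.13 ± 0.318 in sham, a difference of -0.53 (two-sided permutation test of means, p = 0.0059, adjusted p = 0.014 over 7 ratios). The fall held when any 1 library was left out. It did not pass with only the 8 PX animals of BG up to 121 (difference -0.39, exact permutation test, adjusted p = 0.063), without PX 44, PX 65 and sham 46 (-0.42, exact permutation test, adjusted p = 0.067) or without PX 58, PX 62 and PX 65 (-0.37, exact permutation test, adjusted p = 0.089). Slc7a8 to Slc3a2 differed by a similar -0.57, from means of -0.86 ± 0.651 in PX and -0.29 ± 0.491 in sham, and did not pass (permutation test, adjusted p = 0.064). It passed without sham 49 (-0.70, exact permutation test, adjusted p = 0.0042), PX 37 (-0.64, adjusted p = 0.039) or PX 38 (-0.630, adjusted p = 0.044). Slc7a11 to Slc3a2 went the other way, with means of -3.79 ± 1.03 in PX and -5.10 ± 0.396 in sham, a difference of 1.30 (permutation test, p = 0.0012, adjusted p = 0.0043). Slc7a8 to Slc7a5 and Slc38a4 to Slc38a2 differed by -0.032 and -0.12, less than the spread between libraries (permutation tests, adjusted p = 0.78 and 0.66).

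**Figure D2:**
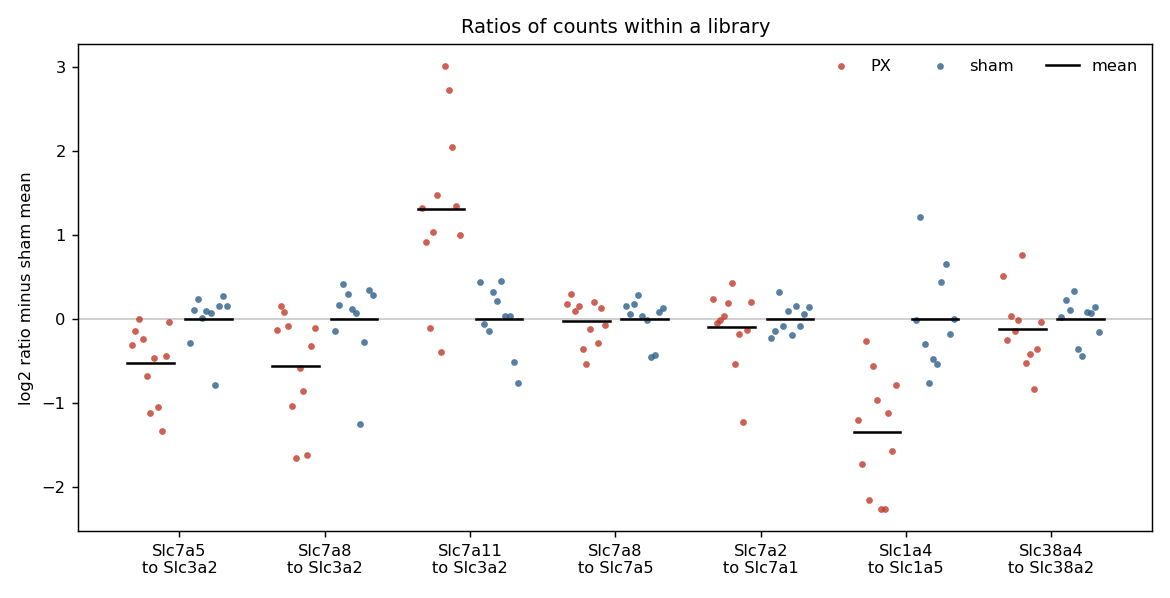
Log2 ratio of counts within a library minus the mean of the sham libraries, for 7 pairs of transporters, with 11 PX points on the left and 10 sham points on the right of each pair and bars at the group means. The PX means lie 0.53 below the sham mean for Slc7a5 to Slc3a2, 1.30 above it for Slc7a11 to Slc3a2, and 1.35 below it for Slc1a4 to Slc1a5.

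Slc1a4 encodes ASCT1, a sodium-dependent exchanger of serine, alanine, cysteine and threonine. It ran from 37.4 CPM in PX 36 through a median of 51.8 to 72.2 CPM in PX 65, against 53.6 CPM in sham 46, a median of 74.6 and 107 CPM in sham 50. All 10 sham libraries were above the PX median, and 7 of the 11 PX libraries were below every sham library. Slc1a4 fell by 0.56 ± 0.13 on the log2 scale, to 52.3 ± 10.4 CPM in PX, against 77.1 ± 17.0 CPM in sham (SD; edgeR, adjusted p = 0.0019).

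Slc1a5 encodes ASCT2, a sodium-dependent exchanger that takes up glutamine. It ran from 7.18 CPM in PX 38 through a median of 17.1 to 33.1 CPM in PX 58, against 3.84 CPM in sham 22, a median of 8.92 and 12.0 CPM in sham 48. Here 7 of 11 PX libraries lay above every sham library. Slc1a5 rose by 0.89 ± 0.23 on the log2 scale, or 1.85-fold, to 16.3 ± 7.58 CPM in PX, against 8.85 ± 2.26 CPM in sham (SD; edgeR, adjusted p = 0.0050). The call was lost when the acinar score entered the fit (log2 fold change 0.58, edgeR, adjusted p = 0.092) and with library totals as the only scaling (0.64, adjusted p = 0.053). Slc1a4 and Slc1a5, the SLC1 pair, moved in opposite directions, and their log2 count ratio averaged 1.78 ± 0.697 in PX and 3.14 ± 0.606 in sham. The difference of -1.35 passed the two-sided permutation test of means (p = 2.0e-04, adjusted p = 0.0014 over 7 ratios), and 9 of 11 PX libraries lay below every sham library.

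The promoter stretches of Slc7a1 and Slc1a4 are shown because these are the members that fell by similar amounts and hold the letters TGATGNAA, a form of the composite C/EBP-ATF element known from genes of the amino acid response. The stretches are from RefSeq, build GRCr8, 5′ to 3′ on the gene's strand, with the match in capitals. Slc7a1 is at chr12:11664432-11664487 on the plus strand, with the match 30 to 23 bases before the annotated start, and Slc1a4 at chr14:98761764-98761812 on the minus strand, with the match on the opposite strand, 235 to 228 bases before the start.
Slc7a1: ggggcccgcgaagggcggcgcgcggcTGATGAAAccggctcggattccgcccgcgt
Slc1a4: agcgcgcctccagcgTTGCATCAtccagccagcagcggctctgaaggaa
Both strands of each promoter window in the RefSeq table, which spans the annotated start, were searched. Slc7a2 and Slc1a5 had no promoter in the table and were not searched. Members are counted by gene, with 9 promoters for 8 genes, while all promoters are counted singly, so the units differ. TGATGNAA was found for 2 of the 8 members with a promoter in the table and in 3.98% of all 33469 promoters. TGACNNNGC, the core letters of the antioxidant response element, was found for 3 of the 8 members, Slc7a1, Slc3a2 and Slc38a2, and in 12.1% of all promoters. The matches to the 2 motifs did not overlap in Slc7a1. Slc3a2 had 2 promoters in the table, and 1 of them held it. A match is a description of these letters and not a bound site, and its part in any change was not tested. The promoters of Slc7a11, Slc7a5, Slc7a8 and Slc38a4 held neither in this window.

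Slc38a4 encodes SNAT4, a sodium-coupled carrier of small neutral amino acids. It ran from 164 CPM in PX 65 through a median of 230 to 294 CPM in PX 36, against 226 CPM in sham 46, a median of 278 and 379 CPM in sham 22. The groups overlapped, with 5 of 11 PX libraries below every sham library. Slc38a4 fell by 0.35 ± 0.11 on the log2 scale, to 223 ± 39.8 CPM in PX, against 285 ± 44.8 CPM in sham (SD; edgeR, adjusted p = 0.014). The call ended without sham 21, sham 22 or PX 41 (edgeR, adjusted p = 0.057, 0.070 and 0.055), with only the 8 PX animals of BG up to 121 (adjusted p = 0.093), without PX 58, PX 62 and PX 65 (adjusted p = 0.19), and when the acinar or the alpha cell score entered the fit (adjusted p = 0.17 and 0.064). Across all of these fits the log2 fold change lay between -0.34 and -0.21. Slc38a2, which encodes the related and starvation-inducible carrier SNAT2, ran from 91.2 to 191 CPM in PX around a median of 147, against 110 to 225 CPM in sham around a median of 172. Its log2 fold change of -0.24 ± 0.12 was not called (edgeR, adjusted p = 0.13). With library totals as the only scaling it was called, at -0.49 (adjusted p = 0.042).

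**Figure D3:**
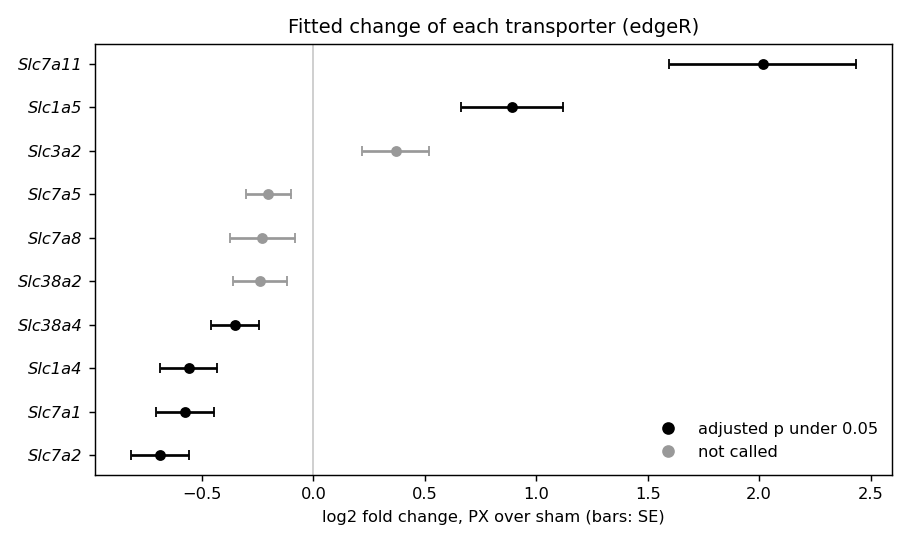
Fitted log2 fold change of each transporter, PX over sham, with its standard error; black points have an adjusted p under 0.05 in edgeR and grey points do not. Slc7a11 and Slc1a5 lie to the right of 0 at 2.02 and 0.89, and Slc7a2 lies furthest to the left at -0.69.

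The relation of the members to BG was fitted within the 11 PX libraries, as the log2 slope per 10 units of BG. None of the 10 members had a slope with an adjusted p under 0.05, and 2 had an unadjusted p under 0.05 (edgeR quasi-likelihood test). Over all 14442 genes tested, 0% were called and 12.2% had an unadjusted p under 0.05. DESeq2 and limma voom called 0 members as well. The members with an unadjusted p under 0.05 were Slc7a2, at -0.099 ± 0.036 (SE; edgeR, p = 0.016, adjusted p = 0.36), and Slc3a2, at 0.098 ± 0.044 (p = 0.044, adjusted p = 0.40). Slc7a2 was highest in the PX animal of the lowest BG, PX 44 at BG 101, and lowest in that of the highest, PX 65 at BG 174. Its slope was -0.11 to -0.085 when 1 library was left out. The Slc3a2 slope was -0.0041 without PX 65. The remaining 8 slopes in PX lay between -0.064 and 0.060.

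Within sham, where BG spans 82 to 104, 0 members were called and 1, Slc1a5, had an unadjusted p under 0.05, with a slope of -0.48 ± 0.20 (edgeR, p = 0.034, adjusted p = 0.999996). Over all 13766 genes tested 0% were called and 0.872% had an unadjusted p under 0.05. The difference between the PX and sham slopes was called for 0 members and reached an unadjusted p under 0.05 for 0 (edgeR interaction term). Over all genes 0% were called and 1.1% had an unadjusted p under 0.05.

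**Figure D4:**
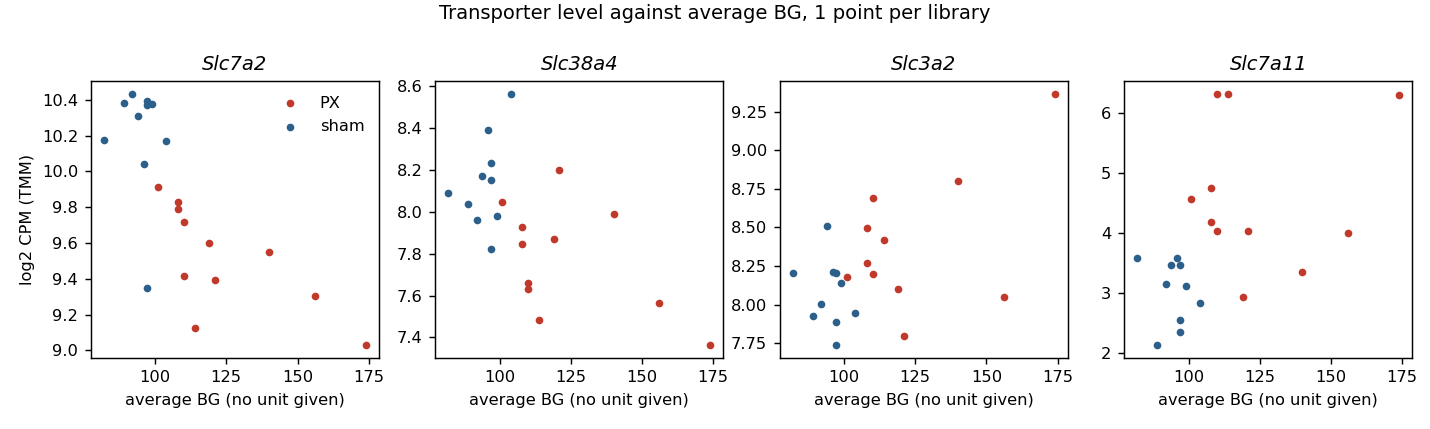
Log2 CPM of 4 transporters against the average BG of the animal (no unit given), with 1 point per library for 11 PX and 10 sham libraries. PX 65 at BG 174 has the lowest Slc7a2 and Slc38a4 and the highest Slc3a2, and the 3 PX libraries of highest Slc7a11 are at BG 110, 114 and 174.

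Markers of other cells moved with the groups, and their levels within PX were set beside the members. Beside the marker counts given here, 14.9% of all genes rose and 16.2% fell. All 14 macrophage markers tested and all 10 mesenchymal markers rose, with median log2 fold changes of 2.73 and 1.80 (edgeR). Of 17 acinar markers 3 rose and 0 fell. Of 4 ductal markers tested 2 rose, of 6 endothelial markers 2 rose and 1 fell, and the 1 T cell marker tested rose. No B cell marker passed the filter on low counts. Among islet cells, 3 of 9 beta cell markers fell and 1 rose, 2 of 4 alpha cell markers fell, and 2 of 3 delta cell markers fell. In permutation tests of the mean scores, 8 of the 9 scored lists differed between PX and sham (adjusted p at most 0.035), and the endothelial score did not (0.34). The mesenchymal score ran from 4.98 to 6.88 in PX and from 3.74 to 5.40 in sham, and the alpha cell score from 4.16 to 5.62 in PX and from 4.99 to 6.55 in sham.

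Within the 11 PX libraries, Slc7a2 was lower where the macrophage score was higher. Pearson's r was -0.82 (permutation p = 0.0024, adjusted p = 0.024 over 20 relations) and Spearman's rho was -0.85 (permutation p = 0.0016, adjusted p = 0.016). Without PX 58 and PX 62, whose scores were farthest from the median, r was -0.94. The relation was not particular to the macrophage score. Over all 21 libraries, after subtracting each group's mean, Slc7a2 had r = -0.78 with the macrophage score and -0.72 with the mesenchymal score. On the same measure it had r = 0.61 with the beta cell score and -0.53 with the ductal score. Sham 46, the sham library with the highest macrophage score at 2.66, was also the sham library with the lowest Slc7a2. It was also the lowest sham library in Slc7a1, Slc1a4, Slc38a2 and Slc38a4. Its beta and delta cell scores were the lowest of the sham group, and its mesenchymal and endothelial scores the highest. Slc3a2 was higher where the acinar score was higher, with r = 0.93 (permutation p = 3.0e-05, adjusted p = 6.0e-04) and rho = 0.92 (permutation p = 2.2e-04, adjusted p = 0.0044). Without PX 36 and PX 65 its r was 0.80, with a permutation p = 0.013 and an adjusted p = 0.13. PX 65, highest in Slc3a2 and in the acinar score, also had the largest total count, 13187959. PX 57, PX 62, PX 66 and PX 58 followed in Slc3a2, at 446, 412, 360 and 341 CPM. Their total counts were 9899157, 9459871, 7909405 and 9056756. PX 36, PX 37, PX 38 and PX 41, at 222 to 293 CPM, had total counts of 4001908 to 6054177. PX 44, with 11205114, had 289 CPM of Slc3a2, below the PX median. The link of Slc3a2 to total count was not tested. The other 18 relations did not pass adjustment by r or by rho. Slc7a11 and Slc1a5 had r = 0.65 and 0.70 with the macrophage score (permutation tests, adjusted p = 0.090 for both), and r = 0.26 and 0.41 without PX 58 and PX 62. With the acinar score they had r = 0.69 and 0.55 (permutation tests, adjusted p = 0.090 and 0.16). Without PX 36 and PX 65 these were 0.60 and 0.61. Over all 21 libraries, after subtracting group means, Slc7a11 had r = 0.61 with the macrophage score. It had 0.66 with the T cell score, which rests on 1 marker, 0.60 with the ductal score and 0.59 with the acinar score. PX 58 and PX 62 have the highest macrophage scores of all libraries, at 5.42 and 5.85. When the macrophage and mesenchymal scores both entered the fit, 0 of the 10 members were called higher and 0 lower, and of all genes 3 were higher and 2 lower (edgeR). The log2 fold changes were then 0.12 for Slc7a2, -0.075 for Slc7a11, -0.34 for Slc1a5, 0.062 for Slc38a4, -0.24 for Slc7a1 and -0.20 for Slc1a4. The macrophage score ranges of PX and sham did not overlap, so score and group can hardly be told apart in this fit. The part of other cells in the members' differences was not tested.

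**Figure D5:**
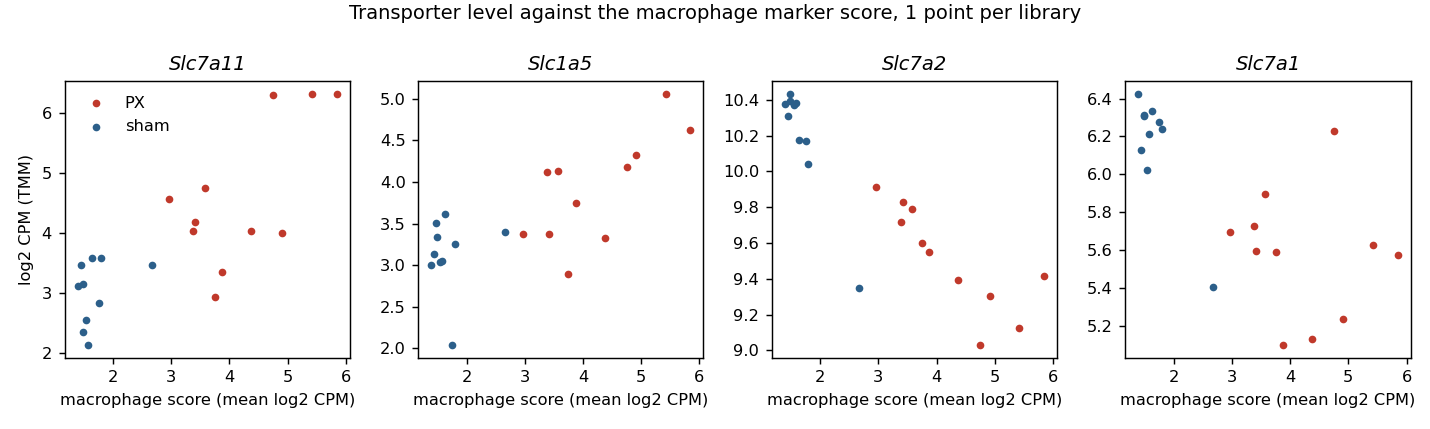
Log2 CPM of 4 transporters against the macrophage score (mean log2 CPM of 14 markers), with 1 point per library for 11 PX and 10 sham libraries. The PX points of Slc7a2 fall with the score (r = -0.82), and the lowest sham point for Slc7a2 and Slc7a1 is sham 46, at a score of 2.66.

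The members were also compared with each other by Pearson's r of log2 CPM over the 21 libraries after subtracting each group's mean, as a description of likeness. Slc38a2 and Slc7a1 were the most alike pair, with r = 0.81. Slc7a5 and Slc7a8, the LAT light chains, followed with 0.73. Slc7a8 was at rank 36 of the genes compared with Slc7a5, and Slc7a5 at rank 482 of those compared with Slc7a8. Slc7a5 and its heavy chain Slc3a2 had r = 0.078, which placed Slc3a2 at rank 3491 of the 8747 genes compared with Slc7a5. Slc38a4 and Slc1a5 had the lowest value, -0.69. Among genes of at least 10 mean CPM, the closest to Slc7a2 were Ago4, an Argonaute protein, and Mmp24, a membrane metalloproteinase (both r = 0.88). The closest to Slc7a11 was Ctsk, the protease cathepsin K (0.87), and the closest to Slc1a5 was Aldh2, a mitochondrial aldehyde dehydrogenase (0.81). The closest to Slc7a8 was Abcf1 (0.95), to Slc3a2 mrpl9 (0.94), to Slc7a1 the cholesterol transporter Npc1 (0.91), and to Slc1a4 Cdk5rap1 (0.88). All of these values share the same libraries, their depth and their cell makeup.

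Other transporters of amino acids showed changes in both directions. Of 42 further carriers in the list, 21 passed the filter. Of these 3 rose and 7 fell, beside 14.9% and 16.2% of all genes, and 11 were not called. Their median log2 fold change was -0.096. Slc7a7, another light chain that pairs with Slc3a2, rose by 1.28 ± 0.21, and Slc1a3, a glutamate carrier, rose by 1.07 ± 0.39 (edgeR, adjusted p = 7.9e-05 and 0.040). Both were low, at means of 7.82 and 3.75 CPM in PX, against 3.19 and 1.72 CPM in sham. The third, named after its values were seen, was Slc38a5, a glutamine carrier, which rose by 0.67 ± 0.12 to a mean of 878 CPM in PX, against 553 CPM in sham (adjusted p = 2.95e-04). The largest falls were Slc6a17 by 0.69 ± 0.15 and Slc7a14 by 0.69 ± 0.15 (adjusted p = 0.0011 and 0.0013). With DESeq2 size factors 4 fell, and over all 21 fits that left out 1 library 4 to 6 fell, fewer than with all libraries. The falls numbered 4 without any 1 of PX 36, PX 41, PX 58, PX 66, sham 21, sham 22, sham 24, sham 48, sham 50 or sham 73.

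Genes of the amino acid response lie under ATF4, a transcription factor induced by amino acid shortage. Of 24 tested, 2 rose, 3 fell and 19 were not called, beside 31.1% of all genes called, and the median log2 fold change of 0.043 was over 13 positive and 11 negative values. Over left-out libraries 1 to 4 rose, with 1 without any 1 of PX 37, PX 41, PX 57, PX 58, PX 62, PX 66 or PX 70, 3 without sham 46 and 4 without PX 44. Those that rose were Jdp2 by 1.87 ± 0.35 and Cebpb by 1.15 ± 0.30 (edgeR, adjusted p = 2.8e-04 and 0.0057), both transcription factors of the bZIP family. Both were low, at means of 2.75 and 8.38 CPM in PX, against 0.725 and 3.73 CPM in sham. Atf5, another of that family, fell by 0.78 ± 0.17, and Vldlr, a lipoprotein receptor, fell by 0.46 ± 0.12 (adjusted p = 0.0013 and 0.0051). The third fall, named after its values were seen, was Sesn2, a leucine sensor, by 0.44 ± 0.15. Of 20 cytosolic aminoacyl-tRNA synthetases, 0 rose and 0 fell, with a median of -0.071 (edgeR). With DESeq2, 2 of them rose, and over left-out libraries 0 to 4 rose and 0 to 2 fell, with 4 rising without PX 37 or without sham 46 and 2 falling without PX 65 or without sham 49.

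Of 30 genes by which mTORC1 senses amino acids, 11 fell and 1 rose, beside 16.2% and 14.9% of all genes. The other 18 were not called, and the median was -0.22. Fnip2, a partner of folliculin, fell by 0.80 ± 0.13 (edgeR, adjusted p = 1.1e-04). Castor1, an arginine sensor, rose by 0.82 ± 0.21 (adjusted p = 0.0046), from a low mean of 2.03 CPM in sham to 3.60 CPM in PX. Falls numbered 6 with only the 8 PX animals of BG up to 121, and 5 without PX 58, PX 62 and PX 65. Over left-out libraries 1 to 4 rose, the highest number without PX 37.

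Beside the lists given here, 14.9% of all genes rose and 16.2% fell. Of 14 genes of arginine and polyamine metabolism, 8 rose, 0 fell and 6 were not called, with a median of 0.55. The largest rises were Ass1, argininosuccinate synthase, by 1.75 ± 0.28 and Arg2, mitochondrial arginase, by 1.69 ± 0.50 (edgeR, adjusted p = 6.0e-05 and 0.012). Arg2 was low, at a mean of 2.78 CPM in PX, against 0.806 CPM in sham. Of 15 glutathione genes and NRF2 targets, 5 rose, 0 fell and 10 were not called, with a median of 0.38. The largest rises were Hmox1, heme oxygenase, by 3.82 ± 0.49 and Gpx1, a glutathione peroxidase, by 2.09 ± 0.40 (edgeR, adjusted p = 7.3e-06 and 5.2e-04). Of 10 enzymes of glutamine and glutamate, 1 fell, Gad2, which makes GABA from glutamate, by 0.65 ± 0.19 (adjusted p = 0.012), 0 rose, and the median was -0.036. Over left-out libraries 0 to 1 of these rose and 1 to 2 fell, with 2 without PX 44, and 5 to 8 of the glutathione list rose, with 8 without PX 37. The macrophage score was higher in all 11 PX libraries than in any sham library beside these lists. With library totals only as the scaling, the rises of the arginine list numbered 4 and those of the glutathione list 3. With the alpha cell score in the fit the rises of the arginine list numbered 3. With the macrophage and mesenchymal scores in the fit 0 genes of these 7 lists were called by edgeR. Score and group can hardly be told apart in that fit. The part of other cells in these lists was not tested.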

How the data were processed

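Polyadenylated RNA of islets was sequenced with a directional kit, per the labels. FastQC, Subread, featureCounts and limma are named in the submitters' processing notes, without versions; the sources used here name neither a genome build nor a strand setting. A table of counts as deposited holds whole, unnormalized read numbers for each gene name, in featureCounts layout with a gene length in base pairs, per the file headers. No exon of another gene overlapped an exon of a member. The authors' deposited table gives a log2 fold change and mean log2 expression, the fold change as a linear ratio, and p-values per gene, per the file headers.

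From the counts, edgeR 4.0.16 (R 4.3.3) gave TMM factors and filtered low genes with filterByExpr (minimum count 10, minimum total 15), and fitted robust quasi-likelihood models over all genes, with Benjamini-Hochberg adjustment and a threshold of 0.05. All 10 members passed the filter. Standard errors are the absolute log2 fold change over the square root of F. Log2 CPM used a prior count of 2, and ratios added 0.5 to each count. Single values were compared by two-sided permutation tests of means (100000 resamples, or exact enumeration where a group had fewer than 10 libraries) in scipy 1.17.1. BG slopes were fitted per 10 units. Cell type scores are the mean log2 CPM of a marker list. The fits were tested on simulated counts.

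The members and lists were chosen with earlier results of these data known. Named genes were the members, up to 2 highest and 2 lowest called genes of each list, and the genes most alike to a member; 1 gene that this rule names is not reported here. Alternatives were other scalings, filters and tests (DESeq2 1.42.0, limma voom 3.58.1), scores as covariates, subsets of PX animals, and single libraries omitted. The fits without PX 58, PX 62 and PX 65, the scalings of scores and the score relations without 2 libraries were chosen after seeing the data. The planned protein comparison was not made, since no protein sequence was used here.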

Additional observations from a re-analysis of the deposited data

Results flagged for a closer look

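In the sham group of 10 libraries, 17 sets of values (10 levels and 7 ratios) were searched for a library far from its neighbours, and 6 were found. Chance flags about 1 in 20 such groups taken singly. The 17 sets share libraries, and the ratios are built from the same genes as the levels, so the flags are not independent. Sham 46 had the lowest log2 CPM of Slc7a2, at 9.35 against 10.04 for the next sham library, and of Slc7a1, at 5.40 against 6.02. Sham 46 also had the highest macrophage, mesenchymal and endothelial scores and the lowest beta and delta cell scores of its group. Sham 49 had the lowest log2 CPM of Slc7a8, at 6.97 against 7.56, and the lowest log2 ratios of Slc7a8 to Slc3a2, at -1.54 against -0.58, and of Slc7a5 to Slc3a2, at -0.66 against -0.16. Sham 49 also had the largest total count of its group, 11266015. Sham 22 had the lowest log2 CPM of Slc1a5, at 2.04 against 2.999. Without sham 46 the members' calls were 3 higher and 4 lower, the added call being Slc3a2. Groups of 11 are not searched this way, so the PX libraries were not.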

How the results depend on the processing

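Slc7a2, Slc7a1, Slc1a4 and Slc7a11 kept their direction and call under every scaling, filter, test and left-out library tried; among the covariate fits the exception was the fit with the macrophage and mesenchymal scores. Leaving out 1 library gave 2 to 3 members higher and 3 to 4 lower, with 1709 to 2607 of all genes higher and 1304 to 2258 lower. Library totals only left 1 member higher and 990 genes higher and moved the median of all genes to -0.28, against which Slc3a2 was at 0.04 and Slc38a2, now called, at -0.49, making 5 members lower. The acinar covariate left 1 member higher and 1013 genes lower. With the macrophage and mesenchymal scores 0 members were higher and 0 lower, with 3 genes higher and 2 lower. The log2 fold changes that changed sign were Slc7a2 at 0.12, Slc7a11 at -0.075, Slc1a5 at -0.34 and Slc38a4 at 0.062. In this fit the macrophage score and the group can hardly be told apart, since the score ranges of PX and sham did not overlap. Genes called lower numbered 1152 with the alpha cell covariate, 957 with only the 8 PX animals of BG up to 121, and 720 without PX 58, PX 62 and PX 65. The cause was not tested.

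The Slc7a5 to Slc3a2 difference lost its call at -0.39 with the 8 PX animals, -0.42 without PX 44, PX 65 and sham 46 and -0.37 without PX 58, PX 62 and PX 65. Ratios that changed sign, never called, were Slc7a8 to Slc7a5 at 0.040 and 0.063 in the first of these fits and the second, and Slc7a2 to Slc7a1 at 0.11 and Slc38a4 to Slc38a2 at 0.060 in the third. Over left-out libraries the differences ranged from -0.62 to -0.45 for Slc7a5 to Slc3a2, -0.70 to -0.46 for Slc7a8 to Slc3a2, 1.13 to 1.47 for Slc7a11 to Slc3a2, -0.084 to 0.018 for Slc7a8 to Slc7a5, -0.15 to 0.014 for Slc7a2 to Slc7a1, -1.46 to -1.22 for Slc1a4 to Slc1a5 and -0.21 to -0.048 for Slc38a4 to Slc38a2. The beta cell score difference lost its call at -0.20 with DESeq2 size factors and at -0.20 with upper-quartile factors, and the endothelial one was -0.17 with library totals only.

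No member's BG slope was called in any fit. Slopes in PX called for all genes numbered 6 without a filter, 27 with DESeq2, 1 with the acinar covariate and 0 to 1 over left-out libraries. Slopes that changed sign were, with library totals only, Slc7a1 at -0.12, Slc7a11 at -0.098, Slc3a2 at -0.028, Slc1a4 at -0.0996 and Slc1a5 at -0.068; with limma voom, Slc7a1 at -0.0050; with the acinar covariate, Slc7a1 at -0.042, Slc7a11 at -0.15, Slc1a4 at -0.015 and Slc1a5 at -0.025; with the macrophage covariate, Slc7a5 at 0.0023, Slc7a11 at -0.013 and Slc1a5 at -0.046. With the 8 PX animals they were Slc7a1 at -0.23, Slc7a5 at 0.0019, Slc7a8 at 0.14, Slc7a11 at -0.25, Slc3a2 at -0.21, Slc1a4 at -0.19, Slc1a5 at -0.074 and Slc38a4 at 0.024. Without PX 65 and PX 41 they were Slc7a1 at -0.20, Slc7a11 at -0.54, Slc1a5 at -0.10 and Slc38a4 at 0.038. Over left-out libraries the slopes ranged from -0.13 to 0.037 for Slc7a1, -0.032 to 0.011 for Slc7a5, -0.32 to 0.12 for Slc7a11, -0.0041 to 0.14 for Slc3a2, -0.054 to 0.051 for Slc1a4 and -0.014 to 0.047 for Slc1a5. The relation of Slc38a2 to the macrophage score was r = -0.18 without the 2 farthest libraries. No paired analysis was possible because no animal number occurs in both groups.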
